A study of Mus musculus with 8 samples.

Results

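CD97, the product of Adgre5, is an adhesion G protein-coupled receptor of leukocytes, and the data described here are the transcript counts of Adgre5, of its ligand gene Cd55 and of 3 further adhesion receptor genes, Adgrg1, Adgrg3 and Adgrl1. These 5 genes were taken by symbol from the 47937 genes of a counts table of sorted thymocytes. They were selected with the measured difference between the genotypes already in view, so their values and fold changes are given as a description, with no test. All 5 had more than 3 counts in each of the 8 libraries and passed the filter on low counts, as did 14633 genes in all.

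The libraries came from CD8 single-positive (CD8SP) TCRβ+ MHC-I high thymocytes, the mature CD8 T cells of the thymus, sorted from mice aged 6 to 7 weeks. Ndrg3 TKO mice (n = 4) carried 2 floxed Ndrg3 alleles (Ndrg3 fl/fl;Lck-cre+), and Ndrg3 ctrl mice (n = 4) carried 1 floxed and 1 wild-type allele (Ndrg3 +/fl;Lck-cre+). Both groups thus carried the Cre transgene, which the proximal Lck promoter drives in developing T cells, and the controls could lose 1 allele. The comparison asked which transcripts differed before the cells left the thymus. Each library held 21126698 to 32668081 counted reads.

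Adhesion receptors combine a long extracellular region, which binds molecules on other cells or in the matrix, with a membrane-spanning region that signals through G proteins. Most cut themselves at a site next to the membrane, and the fragments stay attached until the outer one is pulled away and a short tethered stretch activates the receptor. CD97 binds CD55, the lipid-anchored complement inhibitor decay-accelerating factor, as well as Thy1 (CD90) and integrins. The self-cleavage site is the feature that the 4 receptors share and that their selection by name did not use. Its coding stretch is shown for each of them, 5′ to 3′ on the coding strand, with the histidine, leucine and threonine codons of the site in capitals, where the receptor is cut before the threonine.

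Adgre5: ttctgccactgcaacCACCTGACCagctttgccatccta

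Adgrg1: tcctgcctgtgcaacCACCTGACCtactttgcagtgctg

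Adgrg3: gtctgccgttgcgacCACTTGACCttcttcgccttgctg

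Adgrl1: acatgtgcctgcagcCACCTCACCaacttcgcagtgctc

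The stretches lie within a single coding exon of each gene, in GRCm38 (GENCODE M21) at chr8:83725886-83725924 on the minus strand for Adgre5 and, on the plus strand, at chr8:95007627-95007665 for Adgrg1, chr8:95036650-95036688 for Adgrg3 and chr8:83933991-83934029 for Adgrl1. Adgre5 shared 30 of the 39 bases with Adgrg1, 28 with Adgrg3 and 25 with Adgrl1. The histidine and threonine codons were spelled identically in all 4 genes, whereas the leucine codon was shared by Adgre5 and Adgrg1 and differed in Adgrg3 and Adgrl1. The longest annotated coding sequence had 818 codons for Adgre5, with the histidine of the site at codon 511, against 687 for Adgrg1, 542 for Adgrg3 and 1516 for Adgrl1. Counts were summed over all transcripts of a gene, so the 4 coding lengths of Adgre5 that hold the site could not be separated.

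The targeted gene matched the genotype labels. Ndrg3 had normalized counts (counts scaled by the library's TMM-adjusted size to the mean library total) of 2294, 2359, 2349 and 2342 in Ndrg3 ctrl replicates 1 to 4, and of 1460, 1402, 1537 and 1601 in Ndrg3 TKO replicates 1 to 4. Every Ndrg3 TKO library was below every Ndrg3 ctrl library, and the log2 fold change was -0.64 (SE 0.0526, edgeR adjusted p = 1.04e-05). Gene-level counts also hold exons outside the deleted part, so the reads that remained do not measure intact transcript.

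Adgre5 was higher, and Cd55 lower, in all 4 Ndrg3 TKO libraries than in any Ndrg3 ctrl library. The receptor stood 1.64-fold above the control mean, and the ligand at 0.595 of it. The other 3 receptors overlapped between the groups. Over all 14633 tested genes, 1030 had groups that did not overlap. Of the 5 genes, 2 were past an edgeR adjusted p of 0.05, 1 higher and 1 lower, where 1.15% of all tested genes were past it (0.793% higher and 0.355% lower). Since the genes were selected on this contrast, nothing is read from that count.

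Adgre5 (ENSMUSG00000002885) lies at chr8:83723251-83741326 on the minus strand. Its normalized counts were 3407, 3322, 3380 and 3094 in Ndrg3 ctrl replicates 1 to 4 and 5134, 5757, 5990 and 4819 in Ndrg3 TKO replicates 1 to 4. The lowest Ndrg3 TKO library therefore exceeded the highest control by more than the whole range of the controls. The group means were 3301 ± 142 and 5425 ± 542 (SD, n = 4 each), a log2 fold change of 0.72 (SE 0.0673). By fitted change Adgre5 ranked 167 from the highest of the 14633 tested genes, while by mean abundance it ranked 1589. Its raw counts, 2336 to 6335 per library, leave little counting error.

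Cd55 (ENSMUSG00000026399), whose protein also protects cells from complement, lies at chr1:130439027-130462744 on the minus strand. It had normalized counts of 211, 169, 180 and 174 in Ndrg3 ctrl replicates 1 to 4 and of 120, 95.4, 94.7 and 126 in Ndrg3 TKO replicates 1 to 4. No library of one group reached the range of the other. The means were 183 ± 18.7 and 109 ± 16.4 (SD, n = 4 each), with a log2 fold change of -0.75 (SE 0.14). The gene ranked 70 from the lowest change of all tested genes and 10151 by mean abundance, on 98 to 217 raw counts per library, and its standard error was larger than that of Adgre5. Cd55b, a neighbouring near-copy, had at most 4.23 normalized counts in any library. Stretches of 31 bases common to both genes made up 11.2% of those in Cd55 and 31.8% of those in Cd55b, and reads from these could have been placed on either gene or dropped. In RNA from a sorted population, fewer cells with a transcript and less transcript per cell cannot be told apart, which holds for each difference given here.

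**Figure D1:**
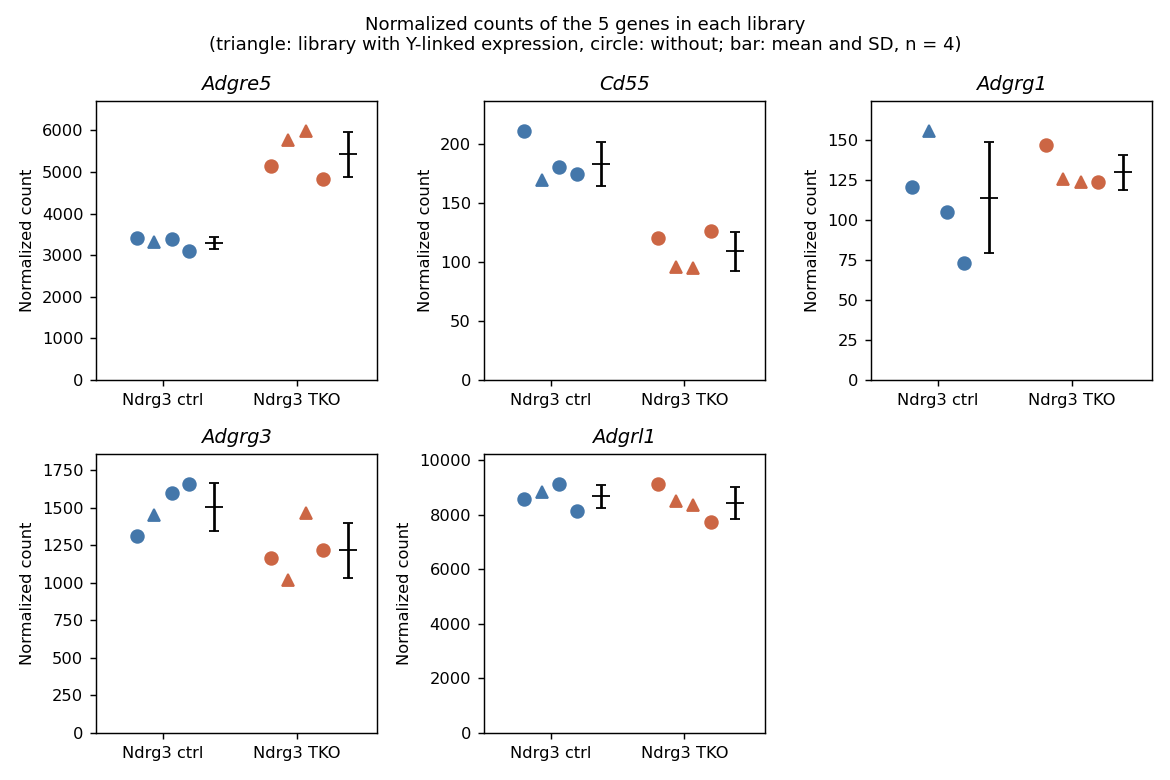
Normalized counts (vertical axes, starting at 0) of the 5 genes in each library; points are single mice, triangles mark the 3 libraries with Y-linked expression (353 to 413 CPM), and the bars give the mean and SD of 4 libraries per group. The 4 Ndrg3 TKO libraries sit between 4819 and 5990 for Adgre5, above all controls, and between 94.7 and 126 for Cd55, below all controls, whereas the groups overlap for the other 3 genes.

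Adgrl1 (latrophilin-1, chr8:83900105-83941954, plus strand) is best known at synapses, where it binds teneurins and the spider toxin latrotoxin. Its normalized counts were 8563, 8839, 9111 and 8134 in Ndrg3 ctrl replicates 1 to 4 and 9136, 8494, 8342 and 7738 in Ndrg3 TKO replicates 1 to 4. The groups overlapped, with means of 8662 ± 417 and 8427 ± 574 (SD, n = 4 each) and a log2 fold change of -0.04 (SE 0.0585). A change of the size seen for Adgre5 would have stood far outside this error.

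Adgrg3 (GPR97, chr8:95017692-95045250, plus strand) is otherwise known from granulocytes. It had normalized counts of 1308, 1450, 1596 and 1660 in Ndrg3 ctrl replicates 1 to 4 and of 1164, 1018, 1462 and 1216 in Ndrg3 TKO replicates 1 to 4. Only Ndrg3 TKO replicate 3, with 1462, fell within the control range. The mean was 1504 ± 157 in controls and 1215 ± 185 in Ndrg3 TKO libraries (SD, n = 4 each), and the log2 fold change was -0.31 (SE 0.104).

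Adgrg1 (GPR56, chr8:94974751-95014217, plus strand) is a surface marker of cytotoxic lymphocytes. It had normalized counts of 121, 156, 105 and 73 in Ndrg3 ctrl replicates 1 to 4 and of 147, 126, 124 and 124 in Ndrg3 TKO replicates 1 to 4. The controls spread widely, from 73 to 156, and enclosed every Ndrg3 TKO value. The means were 114 ± 34.7 and 130 ± 11 (SD, n = 4 each), with a log2 fold change of 0.21 (SE 0.189). The coefficient of variation was 30.5% in controls and 8.46% in Ndrg3 TKO libraries, on 69 to 153 raw counts per library, and the fold change was close to its standard error.

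Levels of the 5 genes and of the receptor family were compared as RPKM, reads per kilobase of exon scaled to library size by TMM. Ranks by mean abundance, and the gene named as leading or most abundant in a list, used counts scaled to library size. These were averaged over all 8 libraries, with no correction for exon length. In Ndrg3 ctrl libraries the order was Adgrl1 (34.9 ± 1.68 RPKM), Adgre5 (30.4 ± 1.31), Adgrg3 (7.52 ± 0.786), Cd55 (1.31 ± 0.133) and Adgrg1 (0.726 ± 0.221; SD, n = 4 each), and no neighbours in this order overlapped over the libraries. In Ndrg3 TKO libraries Adgre5 stood above Adgrl1, at 49.9 ± 4.99 against 33.9 ± 2.31 RPKM. The places of these receptors were exchanged in every library, since Adgre5 ranged from 28.5 to 31.3 RPKM in controls, under the lowest Adgrl1 value of 32.7, and from 44.3 to 55.1 in Ndrg3 TKO libraries, over the highest Adgrl1 value of 36.8. Cd55, at 0.776 ± 0.116 RPKM, overlapped Adgrg1, at 0.831 ± 0.0703, in Ndrg3 TKO libraries and did not differ from it beyond their spread. The order rests on exon lengths that join all annotated transcripts of a gene, from 3757 bases for Adgre5 to 8587 for Adgrl1.

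Part of the adhesion receptor family was detected in mature CD8SP thymocytes. Of 29 family genes examined, 12 had more than 3 counts in all 8 libraries, 14 exceeded 3 counts in none, and 8 of these were at 0 throughout. A count of 3 corresponds to 0.0918 CPM (counts scaled to a fixed library size) in the deepest library and 0.142 in the shallowest, a limit that covers counting error only. By mean RPKM in controls, Adgrl1, Adgre5 and Celsr1 (16.7 ± 1.35) headed these 29 genes, followed by Adgrg3.

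Beyond the selected receptors, 8 of the 25 other family genes were tested and none passed the threshold in edgeR or DESeq2, although 2 had an unadjusted p under 0.05 (1588 of 14633 over all genes). The most abundant was Celsr1, a flamingo cadherin of planar cell polarity, with 16.7 ± 1.35 RPKM in controls and 17.1 ± 1.17 in Ndrg3 TKO libraries (log2 fold change 0.03, SE 0.0655, edgeR adjusted p = 0.906). The 2 genes with an unadjusted p under 0.05, named after their values were seen, were Adgra3 (log2 fold change 0.68, SE 0.226, adjusted p = 0.23) and Adgrb2 (-0.34, SE 0.118, adjusted p = 0.272). The median log2 fold change of the 8 genes was 0.04, beside -0.00 over all tested genes.

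**Figure D2:**
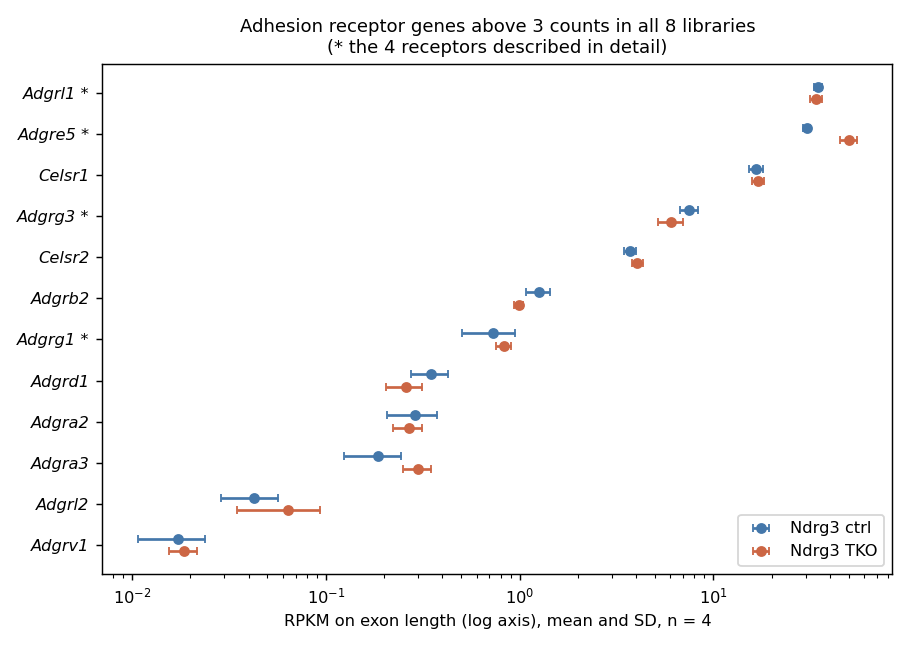
RPKM on a log axis of 12 adhesion receptor genes with more than 3 counts in all 8 libraries, as mean and SD of 4 libraries per group, ordered by the control mean. Adgre5 moves from below Adgrl1 in Ndrg3 ctrl (30.4 against 34.9 RPKM) to above it in Ndrg3 TKO libraries (49.9 against 33.9).

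None of the genes for the other molecules that CD97 binds passed the threshold. Of 6 such genes, 5 were tested, 0 passed in edgeR or DESeq2, and 3 had an unadjusted p under 0.05, as did 1588 of all 14633 tested genes, with a median log2 fold change of -0.10. Thy1, the lipid-anchored surface protein CD90, had means of 24482 ± 1120 normalized counts in controls and 27633 ± 1540 in Ndrg3 TKO libraries (SD, n = 4 each), with a log2 fold change of 0.17 (SE 0.0637, edgeR adjusted p = 0.295). The others tested were integrin subunits, with log2 fold changes from -0.22 for Itgb3 to 0.13 for Itgav. Lpar1, a lysophosphatidic acid receptor that can pair with CD97, had at most 0.97 normalized counts in any library. Among 12 partners of the other receptors, which include collagen, transglutaminase, teneurin and tetraspanin genes, 2 were tested. Cd81, a tetraspanin, had 694 ± 65.5 normalized counts in controls and 839 ± 78.9 in Ndrg3 TKO libraries (log2 fold change 0.28, SE 0.0868, adjusted p = 0.202). Cd9, another tetraspanin, was named after its values were seen, with 354 ± 61.3 and 255 ± 31.6 normalized counts (log2 fold change -0.47, SE 0.132). Its edgeR adjusted p was 0.131, and its DESeq2 adjusted p of 0.0449 was past the threshold.

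Of 14 other complement genes (regulators, receptors and C3) only 2 passed the filter, and neither passed the threshold. Cr1l, the mouse regulator Crry, had normalized counts of 3310 ± 92.4 in controls and 3310 ± 109 in Ndrg3 TKO libraries (SD, n = 4 each; log2 fold change -0.00, SE 0.0471, edgeR adjusted p = 1). Cd46 had a log2 fold change of 0.10 (SE 0.147, adjusted p = 0.864). None passed in DESeq2 or had an unadjusted p under 0.05. No test of a difference between Cd55 and these genes was made.

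Among 15 G protein, arrestin and receptor kinase genes, 12 were tested and 1 was lower in Ndrg3 TKO cells (8.33%, beside 0.355% of all tested genes called lower). Gna15, a Gq-class subunit of blood cells that couples to many receptors, had normalized counts of 50.5, 54, 55.8 and 58.2 in Ndrg3 ctrl replicates 1 to 4 and of 28.8, 30.9, 21.3 and 29.3 in Ndrg3 TKO replicates 1 to 4. The groups were fully apart, with a log2 fold change of -0.98 (SE 0.196, edgeR adjusted p = 0.0262). The call was lost when any one of 6 libraries was left out (Ndrg3 ctrl replicates 1, 3 and 4 and Ndrg3 TKO replicates 1, 3 and 4), with adjusted p from 0.0604 to 0.0953. Grk6, a receptor kinase and the gene of this list with the highest mean CPM, had a log2 fold change of 0.02 (SE 0.0512, adjusted p = 0.934).

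**Figure D3:**
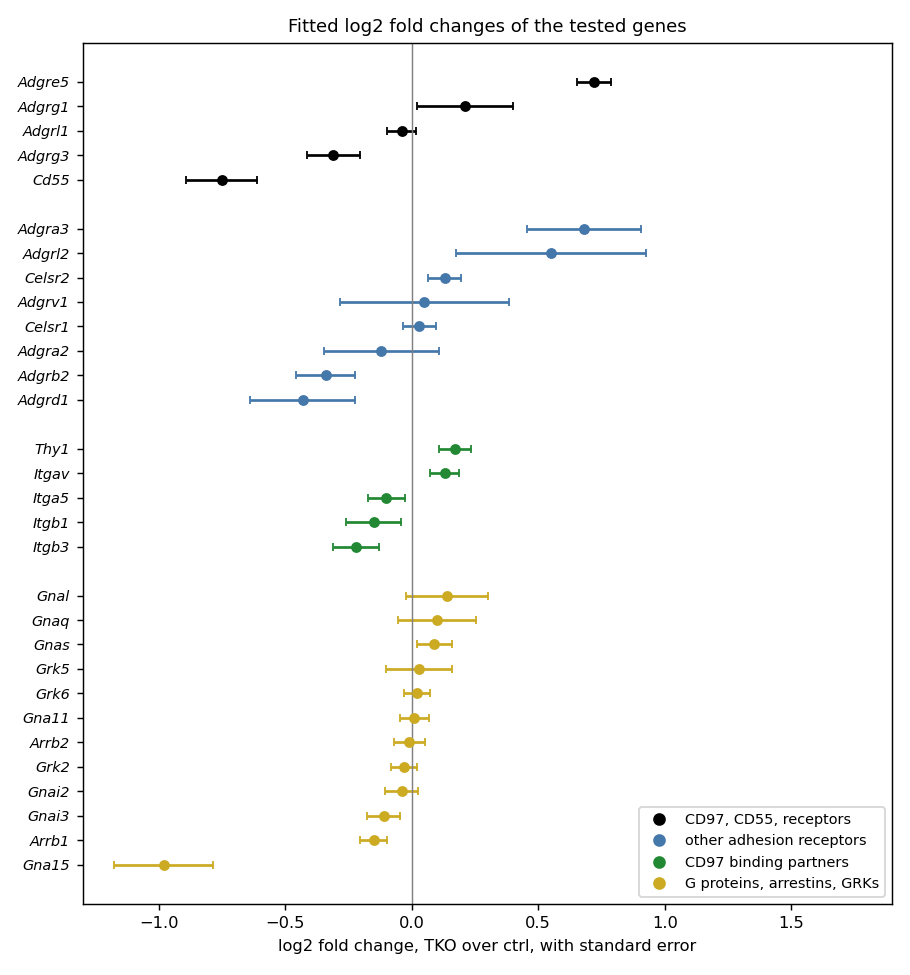
Fitted log2 fold changes (Ndrg3 TKO over Ndrg3 ctrl, horizontal axis) with standard errors for the 5 genes and for the tested genes of 3 lists. Adgre5 lies at 0.72 and Cd55 at -0.75, most abundant genes of the lists are near 0, and Gna15 at -0.98 is the gene of the 3 lists past the threshold.

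Adgrg1 is used as a marker of cytotoxic lymphocytes, so genes of that program were set beside it. Of 16 genes, 12 were tested and 2 fell past the threshold (16.7%, beside 1.15% of all tested genes in either direction). An unadjusted p under 0.05 was reached by 8 (1588 of 14633 over all genes). Of the 12 fold changes, 11 were negative (7493 of 14633 over all genes), with a median of -0.25 on the log2 scale. The exception, Nkg7, a granule membrane protein, had 6744 ± 525 normalized counts in controls and 7901 ± 763 in Ndrg3 TKO libraries (SD, n = 4 each; log2 fold change 0.23, SE 0.0723, adjusted p = 0.203), and was named after its values were seen. Eomes, the T-box factor of CD8 memory and natural killer cells, had normalized counts of 413, 458, 364 and 528 in Ndrg3 ctrl replicates 1 to 4 and of 151, 214, 202 and 171 in Ndrg3 TKO replicates 1 to 4 (log2 fold change -1.26, SE 0.135, edgeR adjusted p = 1.70e-04). Ccl5, a chemokine stored by effector cells, had counts of 37.8, 39.8, 33.3 and 32.8 against 4.8, 4.54, 7.73 and 9.77 (log2 fold change -2.39, SE 0.295, adjusted p = 6.03e-04). The groups did not overlap for 4 of the 12 genes, Eomes, Ccl5, Ctsw and Gzmb (the last named after its values were seen), beside 1030 of all 14633 tested genes, and they overlapped for Adgrg1. Ctsw, the cathepsin of cytotoxic cells and the gene of the list with the highest mean CPM, had 10315 ± 544 and 9170 ± 643 normalized counts (SD, n = 4 each; log2 fold change -0.17, SE 0.0607, adjusted p = 0.286).

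The libraries carried the markers of the sorted cells. All 16 genes listed for mature CD8SP cells were tested and 0 passed in edgeR or DESeq2, with 4 at an unadjusted p under 0.05 and a median log2 fold change of -0.02. B2m, the light chain of MHC-I, had means of 38711 ± 3560 and 41699 ± 2790 normalized counts. Cd8a, the co-receptor that defines the gate, averaged 39568 ± 554 normalized counts in controls against 39110 ± 971 in Ndrg3 TKO libraries (SD, n = 4 each). Cd4 did not exceed 42.7 normalized counts in any library.

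CD97 is also a protein of myeloid cells, so their markers were examined. None of 9 granulocyte genes exceeded 3 counts in any library, S100a9 was at 0 throughout, and the list, led by Prg2, summed to at most 0.146 CPM. The 8 monocyte and macrophage genes summed to 3.93 to 5.45 CPM in Ndrg3 ctrl and 4.41 to 5.11 CPM in Ndrg3 TKO libraries. Of this sum most was Cd68, a lysosomal protein also found in other cells, with 110 ± 28.5 normalized counts in controls and 120 ± 5.01 in Ndrg3 TKO libraries (SD, n = 4 each; log2 fold change 0.11, adjusted p = 0.868). In the dendritic list Flt3 had the highest mean CPM over all 8 libraries (log2 fold change -0.21, adjusted p = 0.885), and the list summed to at most 1.41 CPM.

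Among natural killer genes 1 of the 2 tested was past the threshold, where 0.793% of all tested genes were called higher. Klrb1c, the NK1.1 antigen, rose from 7.76, 18.5, 5.88 and 3.18 normalized counts in Ndrg3 ctrl replicates 1 to 4 to 45.1, 42.7, 59 and 58.6 in Ndrg3 TKO replicates 1 to 4 (log2 fold change 2.62, SE 0.358, edgeR adjusted p = 0.00149). Of the other 5 natural killer genes, Klrd1 was the most abundant (log2 fold change 0.31, SE 0.115, adjusted p = 0.32), Ncr1 was at 0, and Klre1 and Tyrobp had at most 2.67 and 3.84 normalized counts. Zbtb16, the factor of NKT cells, was under the filter and lay the other way, with 9.7, 8.53, 5.88 and 4.23 normalized counts in Ndrg3 ctrl replicates 1 to 4 and 1.92, 0.909, 0.967 and 2.67 in Ndrg3 TKO replicates 1 to 4. The summed list ranged from 28.9 to 33.9 CPM in controls and from 31.4 to 49.6 CPM in Ndrg3 TKO libraries, and its part in the difference of Adgre5 was not tested.

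In the remaining lists no tested gene passed in edgeR. They held 7 immature genes (led by Cd1d1, 5 tested), 4 CD4-lineage (Foxp3, 3 tested), 6 gamma delta (Trdc, 3 tested) and 6 B cell genes (Ighm, 2 tested). Also listed were 6 epithelial (Epcam, 1 tested), 6 endothelial and stromal (Pecam1, 4 tested) and 6 erythroid genes (Alas2, 0 tested). The erythroid list could thus give no call. An unadjusted p under 0.05 was reached by 1 gene each of the immature, CD4-lineage, B cell and stromal lists (1588 of 14633 over all genes). The CD4-lineage gene was Foxp3 (log2 fold change 0.53, SE 0.193, edgeR adjusted p = 0.293). The stromal gene, named after its values were seen, was Cdh5 (-0.64, SE 0.213, edgeR adjusted p = 0.244). DESeq2 called 1 immature gene, Dntt, higher (0.45, DESeq2 adjusted p = 0.0149), and 1 B cell gene, Cd79b, lower (-0.43, DESeq2 adjusted p = 0.00559), both named after their values were seen. Among the B cell genes, Ighm, the immunoglobulin heavy chain constant gene, averaged 7581 ± 563 normalized counts in controls and 7900 ± 613 in Ndrg3 TKO libraries, Cd79b averaged 342 ± 31.9 and 253 ± 15.3 (SD, n = 4 each), and Ms4a1 was at 0.

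Y-linked transcripts moved in part with the groups. By mean CPM over all 8 libraries Kdm5d led them, although Ddx3y was above it in Ndrg3 ctrl replicate 2 (3214 against 2809 normalized counts). The Y-linked transcripts summed to 353 CPM in Ndrg3 ctrl replicate 2, to 389 in Ndrg3 TKO replicate 2 and to 413 in Ndrg3 TKO replicate 3. No other library exceeded 0.0731 CPM. Those 2 Ndrg3 TKO libraries had the highest Adgre5 and the lowest Cd55 of their group. Among the libraries at or under that level (3 Ndrg3 ctrl, 2 Ndrg3 TKO) the log2 ratio of means was 0.60 for Adgre5 and -0.61 for Cd55, and among the others (1 Ndrg3 ctrl, 2 Ndrg3 TKO) it was 0.82 and -0.83, with a single control and so no spread in that arm. With Y-linked expression as a covariate the fitted log2 fold changes were 0.67 (SE 0.0573) and -0.69 (SE 0.125). The ratio for Adgrg1 was 0.44 among the former libraries and -0.32 among the latter.

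Of the 5 genes, 4 lie on chromosome 8, in pairs 11000 kb apart. Adgre5 and Adgrl1 are separated by 159 kb, and Adgrg1 and Adgrg3 by 3.48 kb. In the first pair the log2 fold changes were 0.72 for Adgre5 and -0.04 for Adgrl1, and in the second -0.31 for Adgrg3 and 0.21 for Adgrg1, and no difference within a pair was tested. Within 250 kb of the 5 genes, 32 other genes were tested and 1 passed in edgeR (3.12%, beside 1.15% of all tested genes). An unadjusted p under 0.05 was reached by 5 (1588 of 14633 over all genes). DESeq2 called 2, beside 306 over all genes, and the median log2 fold change was -0.02. The gene that rose was Rfx1, a winged-helix transcription factor gene within 250 kb of Adgrl1 only, with starts 167 kb apart. Its start is 326 kb from that of Adgre5, and no other gene tested within 250 kb of Adgre5 passed. Rfx1 had mean normalized counts of 3373 in controls and 4814 in Ndrg3 TKO libraries (log2 fold change 0.51, SE 0.0605, adjusted p = 4.46e-04). Mir709, annotated inside Rfx1 and named after its values were seen, had a log2 fold change of 0.93 (SE 0.212, adjusted p = 0.0526), and reads of the host gene and of the microRNA cannot be told apart there.

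Ddx39, an RNA helicase gene, overlaps Adgre5 on the opposite strand. It had a log2 fold change of -0.07 (SE 0.0591, adjusted p = 0.697), so it did not move with Adgre5. The library kit keeps the strand, but the strand setting of the counting is not given in the sources used here. Mir1668 lies within Adgre5 on its own strand, Gm16083 overlaps Cd55 on the opposite strand, and Gm44450, Gm44330 and Gm10644 overlap Adgrl1 on the opposite strand. Near Cd55, 3 genes were tested and none passed. Gm15675 had a log2 fold change of -0.68 (SE 0.241, adjusted p = 0.284), Zp3r, a complement-control-protein gene of sperm, had -0.46 (SE 0.171, adjusted p = 0.315), and Pfkfb2 had 0.14 (SE 0.0819, adjusted p = 0.563).

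**Figure D4:**
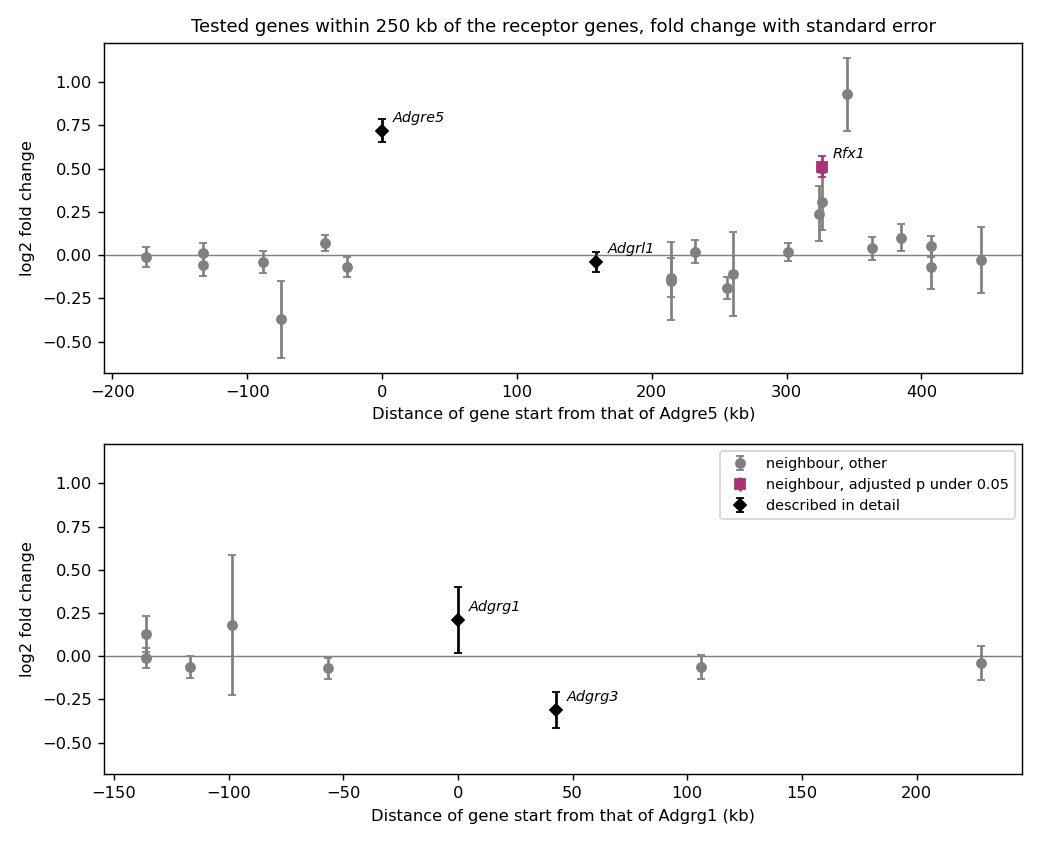
Fitted log2 fold changes with standard errors (vertical axis) of the tested genes within 250 kb of the receptor genes, against the distance of their start from that of Adgre5 (upper panel) or Adgrg1 (lower panel) in kb. Adgre5 lies at 0.72 and its nearest neighbour, Ddx39, at -0.07. Rfx1 at 0.51, within 250 kb of Adgrl1 and not of Adgre5, is the neighbour past the threshold. The lower panel holds Adgrg3 at -0.31 and Adgrg1 at 0.21.

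The transcripts most like Adgre5 over the 8 libraries, by Pearson correlation of log2 CPM, were Tagln2 (r = 0.982), Perm1 (0.981), Crbn (0.981), Tent5a (0.979) and Arhgap5 (0.978). These values describe libraries that fall into 2 groups and so mostly restate the group difference. Tagln2, an actin-binding protein, rose from a mean of 6628 to 9303 normalized counts (log2 fold change 0.49, SE 0.0504, edgeR adjusted p = 1.19e-04). Tent5a, a poly(A) polymerase, rose by 0.69 (SE 0.0918, adjusted p = 0.00112), and Arhgap5 by 0.50 (SE 0.0728, adjusted p = 0.00282). Perm1 (0.34, adjusted p = 0.119) and Crbn (0.19, adjusted p = 0.0698) did not pass the threshold in edgeR. Both passed in DESeq2, with a DESeq2 adjusted p of 0.0449 for Perm1 and 0.0118 for Crbn.

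With each group's mean removed, the transcripts closest to Adgre5 were Gpr55 (r = 0.982), Lrfn4 (0.966), Wipi2 (0.964), Fchsd1 (0.963) and 3010003L21Rik (0.958), again over 8 libraries that share their depth and scaling. None of the first 5 was among these. The 5 named here were picked as the highest r among the tested genes outside the selection, and r was not tested. With 8 libraries, values this high can come from that picking alone. 3010003L21Rik averaged only 20.73 normalized counts in controls and 21.06 in Ndrg3 TKO libraries. Gpr55, a lipid-sensing G protein-coupled receptor, had a log2 fold change of 0.46 (SE 0.0976, adjusted p = 0.0465), a call lost when any library but Ndrg3 TKO replicate 4 was left out, with adjusted p from 0.0752 to 0.133. The other 4 had adjusted p from 0.645 to 0.992.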

How the data were processed

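RNA-seq libraries were made with a stranded total RNA kit after ribosomal RNA depletion, 1 library per mouse, from 400000 sorted cells. Per the labels and the study's methods, the authors used cutadapt for trimming, STAR for alignment to GRCm38.p4 (GENCODE M9) and featureCounts for counting per gene, within snakePipes 2.5.3. The deposited values are raw counts, whole numbers with no normalization. Each count column was assigned to its mouse by the number in the sample description.

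Groups and replicate numbers came from the sample titles and genotypes. Symbols, positions, exon lengths and coding sequences came from GENCODE M21, matched by Ensembl identifier for 47310 of 47937 genes (98.7%). Genes were filtered with filterByExpr, scaled by TMM and tested with edgeR 4.0.16 in R 4.3.3 (robust glmQLFit, glmQLFTest, 2-sided), with Benjamini-Hochberg adjustment over 14633 genes and a threshold of 0.05. Standard errors were derived from each log2 fold change and its F statistic (absolute change over the root of F). Log2 CPM used a prior count of 2. The procedure was tested on simulated data. Libraries of a group differed by a chi-square of 9.26 to 32.3 per gene, so none was a duplicate.

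The genes described, the gene lists, the alternatives and the rule for named genes were chosen with earlier results of these data known. The rule covered these genes, Ndrg3 and Eomes, each list gene or neighbour within 250 kb past the threshold, the most abundant tested gene of each list, and the 5 genes most like Adgre5 by each measure. Prg2, Alas2 and Kdm5d led lists in which no gene was tested. They were named outside this rule, after their values were seen. Alternatives were DESeq2 1.42.0, RLE scaling, other filters, a replicate block, Y-linked expression as a covariate and leaving out each library. 1 gene of the selection and 1 gene list are not reported here.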

Additional observations from a re-analysis of the deposited data

Results flagged for a closer look

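Among 76 sets of 4 libraries checked with Dixon's test, 3 held a library far from the other 3, and about 1 in 20 such sets is picked out by chance. These were Adgrg1 in Ndrg3 TKO replicate 1 (147 normalized counts, the highest of its group), Klrd1 in Ndrg3 ctrl replicate 3 (823, the lowest) and Grk6 in Ndrg3 ctrl replicate 1 (15675, the lowest). Neither Adgre5 nor Cd55 had such a library in either group.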

How the results depend on the processing

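The log2 fold changes of the 5 genes moved by less than 1 SD in all 70 recomputations, ranging from 0.67 to 0.77 for Adgre5, -0.83 to -0.68 for Cd55, 0.04 to 0.38 for Adgrg1, -0.41 to -0.23 for Adgrg3 and -0.08 to -0.00 for Adgrl1. The number of genes past the threshold depended on the fit. It was 306 with DESeq2 (187 higher, 119 lower), 274 without a filter on low counts (176 and 98), 437 with Y-linked expression as a covariate (262 and 175), and from 90 to 158 with 1 library left out (72 to 110 higher, 18 to 48 lower), where fewer samples entered.

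Same-numbered libraries did not deviate together in every pair (r = 0.181, 0.415, -0.055 and 0.301), so the numbers were not taken as pairs. 6 of 8 libraries correlated best with their own number, a hint from the data and not the design. The libraries of replicate 3, at r = -0.055, also differed in Y-linked expression, so that value cannot decide whether the numbers pair the libraries. The numbers heading the count columns run close together within replicate 1 and within replicate 4. Those of replicates 2 and 3 are mixed, and what the numbers stand for is not given. With the replicate block, 800 genes passed (435 higher, 365 lower), 164 of the 168 among them. The block gave 1 call among the other adhesion receptors, 3 among the CD97 partners, 2 among the partners of other receptors, 2 among the G protein genes, 5 in the cytotoxic list and 3 among the neighbours. Partners of other receptors had 1 call with DESeq2, 1 without a filter and 0 to 1 with a library left out (1 without Ndrg3 ctrl replicate 4). The G protein genes had 0 to 1 with a library left out. A minimum of 10 counts in every library left 1 call in the cytotoxic list, since Ccl5 was no longer tested. The neighbours had 2 calls with DESeq2, 2 without a filter and 2 with the Y-linked covariate. Perm1 and Crbn, which resembled Adgre5, passed in edgeR with the replicate block (adjusted p = 0.044 and 0.00707). Crbn also passed with the Y-linked covariate (edgeR adjusted p = 0.0408). Apart from these construction effects the cause was not tested. Cd55 and Adgrg1 had the fewest reads of the 5 genes, with at most 217 and 153 raw counts.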
